A study of Mus musculus with 6 samples.

Results

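The genes described here are 73 enzymes and related proteins that write, erase or read marks on histones and DNA, or remodel nucleosomes, measured by messenger RNA sequencing of mouse palatal shelves at embryonic stage E14.25. They were chosen by symbol from the 23366 genes listed for every library: the Kdm, Setd, Ezh, Ehmt, Prdm, Hdac, Sirt, Dnmt, Tet and Chd genes, leaving out Kdm6a, Kdm6b, Kdm5d, Setd1a and Setd1b. The rule itself uses no expression value, though the members were chosen with earlier results of these data known. The study compared 3 wild type libraries, numbered 2, 3 and 4, with 3 libraries of genotype Kmt2d fl/fl Wnt1-Cre, numbered 1, 2 and 3, here called the knockout. Kmt2d encodes a histone H3 lysine methyltransferase. The Wnt1-Cre driver deletes floxed alleles in the neural crest lineage, which makes most of the palatal mesenchyme, so epithelium, endothelium and macrophages of the same shelves are not deleted. The labels give the control genotype only as WT and do not say whether those embryos carried floxed alleles or Cre. The comparison asks whether the transcripts of the other chromatin enzymes differ when this methyltransferase is removed from the neural crest. In whole tissue, fewer cells of a type and less RNA per cell cannot be told apart.

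Histone marks are set by methyltransferases and acetyltransferases and removed by demethylases and deacetylases, while DNA methylation is laid down by Dnmt enzymes and oxidised by Tet enzymes. Kmt2d adds methyl groups to lysine 4 of histone H3, mainly at enhancers. Members of the Kdm5 and Kdm1 families remove methyl groups from that same residue, and Chd7 binds it when methylated. Several of these genes are known from craniofacial development: CHD7 is mutated in CHARGE syndrome, HDAC4 deletion is linked to brachydactyly with intellectual disability, and Prdm16 is required for palate closure in mice.

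Among the libraries, 1 stood apart. Of all listed read pairs in knockout replicate 2, 47.5% lay outside any gene (12.3% to 18.1% in the remaining 5 libraries), and its 12721979 pairs in genes compared with 18902786 to 24916079 elsewhere. The muscle gene Ttn stood at 10160 CPM in knockout replicate 2 and at 66.3 to 191 CPM in the others, where CPM is the count scaled to a common library size after normalisation. The ribosomal feature Rn45s took 16.2% to 20.7% of gene counts in the wild type and 35.1%, 18.6% and 30.02% in knockout replicates 1, 2 and 3. Palatal mesenchyme markers were present in every library, with a summed level of 1109 to 1174 CPM in the wild type and 1382, 1463 and 1289 CPM in the knockout. Most of that sum was Prrx1 (562, 630 and 582 CPM against 773, 948 and 682 CPM), and 5 of the 12 markers had a negative log2 fold change, among them Prrx2 at -0.79 (edgeR adjusted p = 0.170, and 0.0103 without knockout replicate 2) and Twist1 at -0.43 (adjusted p = 0.432), or -0.21 without that library. The targeted gene, listed under its older symbol Mll2, stood at 197, 211 and 171 CPM in the wild type and at 254, 539 and 194 CPM in the knockout. Those counts cover the whole gene, including exons outside any deleted part, and so check nothing about the labels. Where leaving out knockout replicate 2 moved a printed log2 fold change by over 1.5 times, the value without it is given beside it.

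Promoter sequences are shown for 3 of the genes whose values are described below: Hdac5, a lysine deacetylase, Kdm3a, a demethylase of histone H3 lysine 9, and Tet2, a 5-methylcytosine oxidase. They had the smallest p among the members with an entry in the RefSeq promoter table (build GRCm38.p6). Each runs from 250 bases before to 50 bases after an annotated start, and the capitals mark every CG, the dinucleotide that DNA methyltransferases and Tet enzymes act on and that Kdm2a and Kdm2b bind when it is not methylated. The Hdac5 window is chr11:102230123-102230422 on the minus strand, with 18 CG. The Kdm3a window is chr6:71632637-71632936 on the minus strand, with 40 CG, and is 1 of 3 starts in the table. The Tet2 window is chr3:133544341-133544640 on the minus strand, with 57 CG.
Hdac5: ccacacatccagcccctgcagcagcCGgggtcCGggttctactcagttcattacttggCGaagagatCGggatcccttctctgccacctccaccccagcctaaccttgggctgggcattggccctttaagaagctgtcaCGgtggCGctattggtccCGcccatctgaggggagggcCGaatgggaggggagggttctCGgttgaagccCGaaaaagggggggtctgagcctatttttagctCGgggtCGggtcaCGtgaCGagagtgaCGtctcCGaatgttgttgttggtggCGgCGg
Kdm3a: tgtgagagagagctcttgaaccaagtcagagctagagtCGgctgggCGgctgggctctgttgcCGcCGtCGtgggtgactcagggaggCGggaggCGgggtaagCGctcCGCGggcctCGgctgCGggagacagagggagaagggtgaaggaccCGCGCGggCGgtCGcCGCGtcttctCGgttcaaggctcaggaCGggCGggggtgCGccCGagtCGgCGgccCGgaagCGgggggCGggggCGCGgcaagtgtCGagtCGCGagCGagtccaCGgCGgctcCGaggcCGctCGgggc
Tet2: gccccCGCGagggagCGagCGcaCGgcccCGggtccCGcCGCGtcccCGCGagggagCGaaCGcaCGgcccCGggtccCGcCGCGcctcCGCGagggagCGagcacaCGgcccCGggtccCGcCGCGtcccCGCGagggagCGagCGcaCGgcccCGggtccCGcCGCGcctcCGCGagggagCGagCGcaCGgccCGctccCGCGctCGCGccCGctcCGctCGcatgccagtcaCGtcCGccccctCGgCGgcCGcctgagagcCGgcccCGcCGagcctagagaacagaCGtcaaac
Of the 73 genes, 58 had an entry, and 53 of these (91.4%) held 10 or more CG in the start richest in them, with a median of 23.5 and a range from 1 in Setd5 to 57 in Tet2. Among the 17492 protein-coding genes of the table, 59.5% held 10 or more and the median was 15.0. At least 1 CG was found in 100% of the members' windows and in 95% of the windows of all those genes. The genes of the table were not selected for expression in the palate, while 69 of the 73 members had enough counts to be tested. No set of genes matched for expression was compared. CG reads the same on both strands, and the counts are of letters only.

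Of the 73 genes, 69 had enough counts to be tested. Prdm13 had 0 counts in all 6 libraries, which allows at most 3 counts in all, or 0.0248 CPM, counting error only. Dnmt3l, a germ cell cofactor of the DNA methyltransferases, had 1 count, the pluripotency regulator Prdm14 had 2, and the neural regulator Prdm12 had 54 over the 6 libraries. The 69 others ran from a mean of 0.567 to 751 CPM.

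With all 6 libraries, 0 of the 69 genes passed edgeR's quasi-likelihood test at an adjusted p of 0.05, where 0.534% of the 14233 genes tested passed. At an unadjusted p under 0.05, 10 were higher in the knockout (14.5%, against 7.51% of all genes) and 1 was lower (1.45%, against 6.69%). DESeq2 called 2, Chd7 higher and Hdac5 lower, where it called 3.41% of all genes. The log2 fold change, knockout over wild type, was positive in 55 of 69 with a median of 0.16, and in 51.5% of all genes with a median of 0.011. All 3 knockout libraries lay above all 3 wild type libraries in 23 genes (33.3%, against 12.3% of all genes) and below them in 2 genes, Hdac5 and Hdac1 (2.9%, against 11.2%). The groups overlapped in the other 44.

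Much of the upward lean was measured in 1 library. The level was highest in knockout replicate 2 for 40 of the 69 genes (58.0%), against 34.7% of all genes. Relative to the wild type mean, the median log2 difference of the 69 genes was 0.075 in knockout replicate 1, 0.31 in replicate 2 and 0.10 in replicate 3, where all genes had 0.018, -0.016 and 0.030. Without knockout replicate 2 the median log2 fold change of these 69 was 0.094 and 53 of 69 were positive. That fit moved 55 of the 69 closer to 0 and changed the sign of 14. In it 1 gene passed, Hdac5, which fell, where 1.57% of the 14450 genes tested fell and 0.547% rose. In knockout replicates 1 and 3 alone, 28 genes lay above all wild type libraries and 3 below, where 18.6% and 15.7% of all genes did so. The genes are long, with a median genomic span of 52.3 kb against 24.3 kb over all genes tested. Across genes within knockout replicate 2, the log2 ratio to the other knockout libraries ran with span at a Spearman rho of 0.33 over 14183 genes and 0.027 over the 69. With transcript length the rho was 0.41 over 13622 genes and 0.21 over the 69. These points share the same libraries, and genes are not independent replicates. The ratio over all genes had a small constant added to both levels before the log, and the ratio over the 69 had none. The rho values of the whole and of the 69 are therefore not strictly alike.

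**Figure D1:**
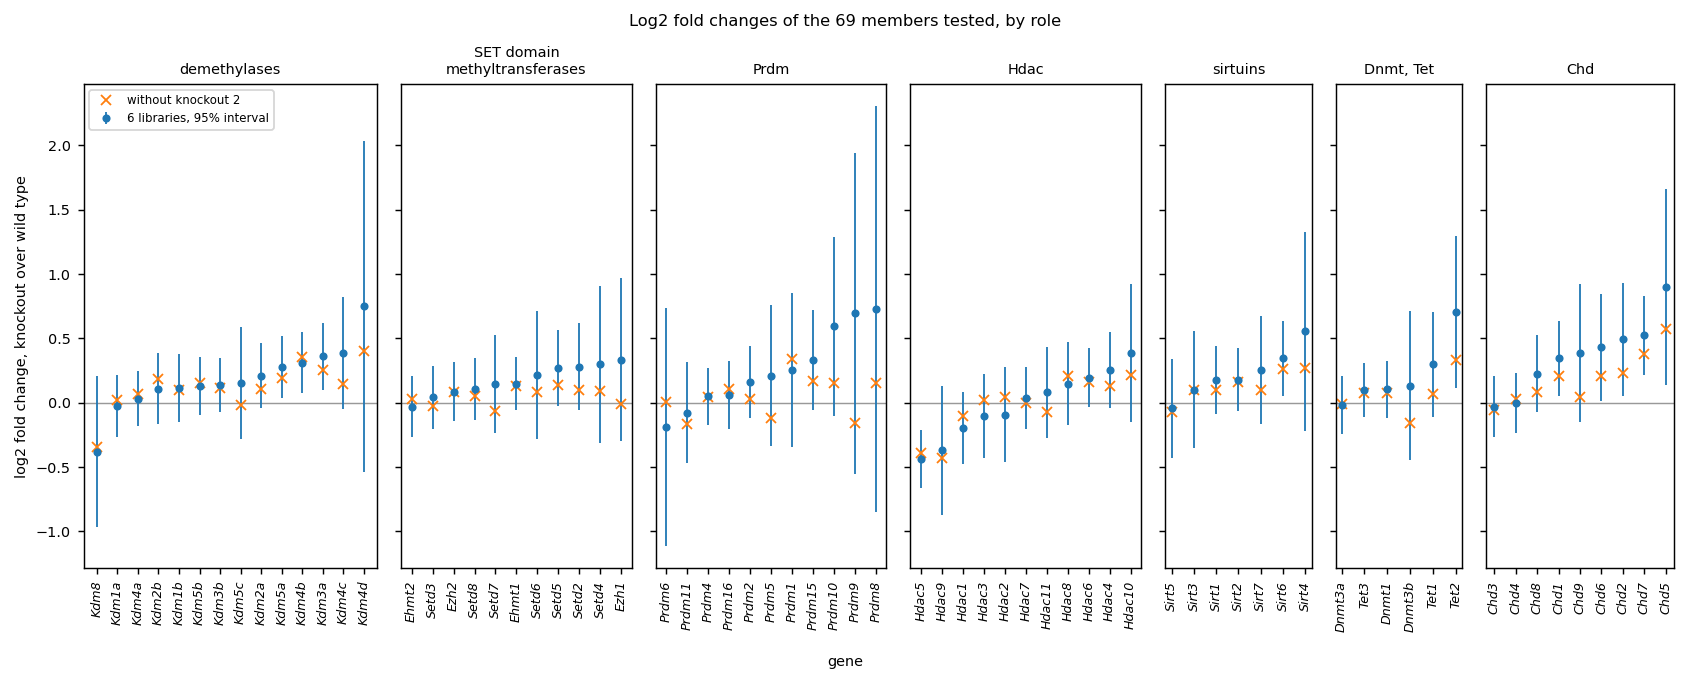
Log2 fold changes (knockout over wild type) of the 69 tested genes by role, with 95% intervals from all 6 libraries as blue points and bars and values without knockout replicate 2 as orange crosses. Most points lie above 0, and 55 of the 69 crosses lie closer to 0 than the blue points.

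**Figure D2:**
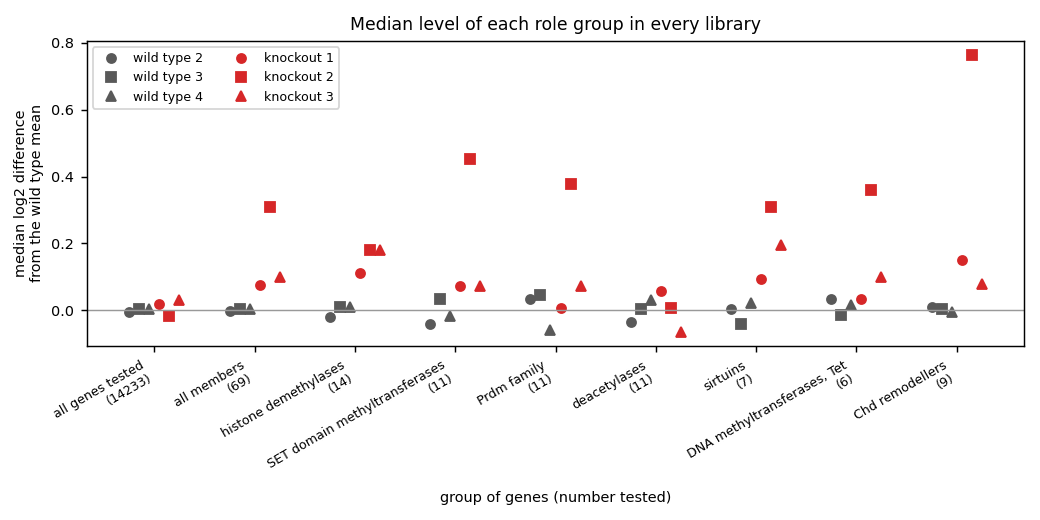
Median log2 difference from the wild type mean in each library, for all genes, for the 69 genes and for each role, with wild type libraries in grey and knockout libraries in red. Knockout replicate 2 is the highest library in 6 of the 7 roles, by most for the Chd genes at 0.77 and nearly level with replicate 3 for the demethylases.

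Precision differed among the genes. The 95% interval of the fold change lay inside 1.5-fold in either direction for 38 of the 69 genes. It reached 2-fold in 8 genes, of which Kdm4d, Prdm6, Prdm8 and Prdm9 were among the lowest in level. The point estimate lay within 1.1-fold of equal for 25 genes.

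Levels differed widely among the genes. Per kilobase of the longest protein-coding transcript, the highest wild type levels were those of Chd3 (104 CPM per kb), Hdac2 (84.8 CPM per kb), Chd4 (82.1 CPM per kb) and Hdac1 (61.3 CPM per kb). These 4 encode ATPases and deacetylases of the NuRD complex, which couples nucleosome remodelling to deacetylation. Ezh2, Dnmt1, Ehmt2, Hdac3, Dnmt3a and Setd5 followed at 44.8, 43.7, 43.2, 42.8, 42.0 and 41.1 CPM per kb. The library values of these 6 lay close together in the plot of levels, and no order among them is read from it. Paralogs within a role were far apart: Ezh1 stood at 3.98 CPM per kb, Dnmt3b at 2.38 and Chd5 at 0.6003.

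**Figure D3:**
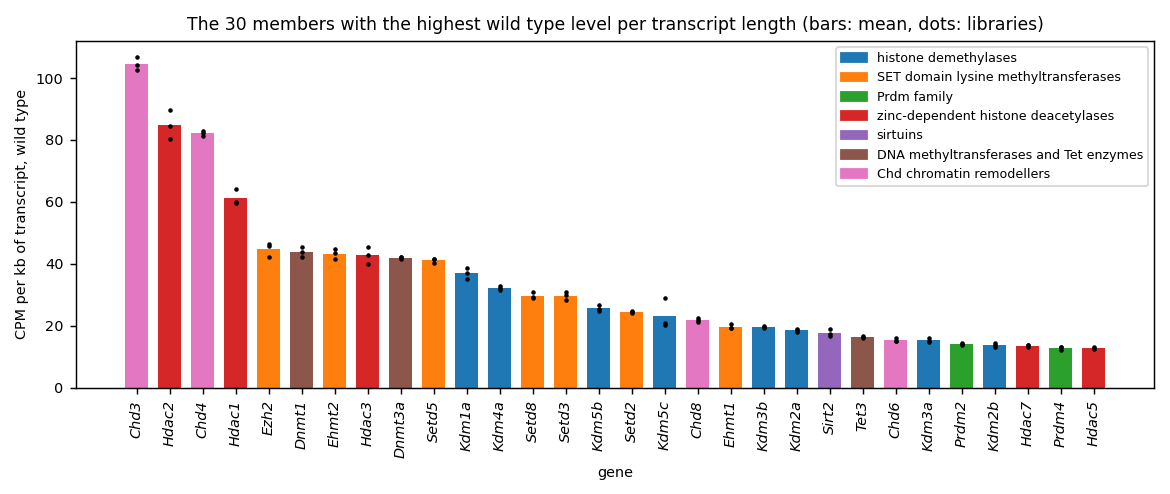
Wild type level per kilobase of transcript (CPM per kb) for the 30 highest of the 69 genes, coloured by role, with bars for the mean of 3 libraries and dots for each library. Chd3, Hdac2, Chd4 and Hdac1 stand above the rest, and the dots of Kdm5c are spread because 1 wild type library is higher.

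The Chd genes, ATP-dependent nucleosome remodellers with a chromodomain, had the largest median of the 7 roles at 0.39. Of the 9, 7 were positive, 6 were separate and higher, and 5 were higher with an unadjusted edgeR p under 0.05. Over all genes tested, 51.5% were positive, 12.3% were separate and higher, and 7.51% were higher with an unadjusted edgeR p under 0.05. Chd7, the remodeller that binds methylated lysine 4 of histone H3, stood at 39.7, 38.9 and 39.6 CPM in the wild type and 49.2, 67.0 and 54.1 CPM in knockout replicates 1, 2 and 3. All knockout libraries lay above the tight wild type values, with replicate 2 highest. Its log2 fold change was 0.53 (SE 0.13, edgeR adjusted p = 0.190), and 0.38 without knockout replicate 2 (adjusted p = 0.0532). The 95% interval with 6 libraries ran from 1.16-fold to 1.78-fold.

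Chd1, which also binds methylated lysine 4 and acts with elongating polymerase, stood at 96.9, 95.2 and 96.0 CPM in the wild type and 107, 143 and 116 CPM in the knockout. Its paralog Chd2 stood at 114, 118 and 115 CPM against 147, 215 and 127 CPM. Both were higher in every knockout library, by log2 fold changes of 0.34 (SE 0.13, edgeR adjusted p = 0.317) and 0.49 (SE 0.19, adjusted p = 0.327), which became 0.21 and 0.23 without knockout replicate 2. Chd6, a large remodeller of the Chd7 subfamily, had 159, 169.9 and 158 CPM against 206, 279 and 170.2 CPM, so that knockout replicate 3 was level with the highest wild type library. Chd5, a remodeller known mainly from neurons and testis, had 6.48, 6.95 and 3.66 CPM against 9.30, 14.9 and 7.84 CPM (log2 fold change 0.90, SE 0.33, edgeR adjusted p = 0.316). It had the largest log2 fold change of the 69 genes, on a low level, with a 95% interval from 1.102-fold to 3.16-fold. Leaving out knockout replicate 2 gave 0.57, and leaving out wild type replicate 4 gave 0.66. Markers of neurons and neural progenitors summed to 276 to 382 CPM in the wild type and 230, 479 and 347 CPM in the knockout. Their part in the Chd5 value was not tested.

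The groups overlapped for the NuRD ATPases Chd3 and Chd4. Chd3 stood at 775, 746 and 756 CPM in the wild type and 726, 762 and 744 CPM in the knockout. Chd4 stood at 544, 552 and 555 CPM against 564, 518 and 565 CPM. The lowest value of each gene came from a knockout library, and the 95% intervals of the fold changes ran from 0.832 to 1.15 for Chd3 and from 0.848 to 1.18 for Chd4. By library, the median of the 9 Chd genes lay 0.15, 0.77 and 0.080 above the wild type mean on the log2 scale in knockout replicates 1, 2 and 3. Without knockout replicate 2 the median log2 fold change was 0.21, and without knockout replicate 3 it was 0.52.

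**Figure D4:**
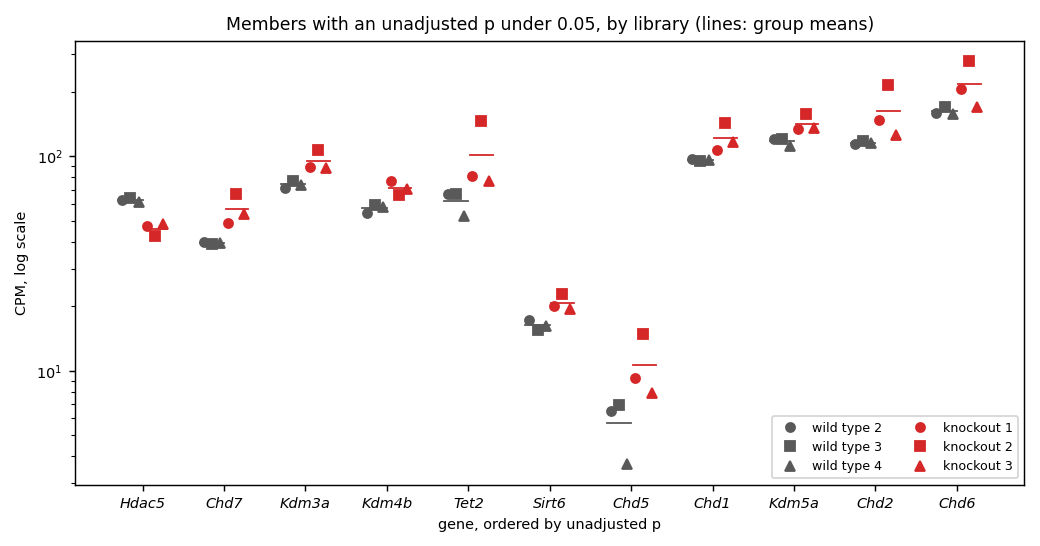
CPM on a log axis in each library for the 11 genes with an unadjusted p under 0.05, ordered by p, with grey symbols for wild type libraries, red symbols for knockout libraries and lines for group means. Hdac5 alone is lower in the knockout, and the red squares of knockout replicate 2 are the highest in 9 of the other 10, Kdm4b being the exception.

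The zinc-dependent deacetylases remove acetyl groups from histones and other proteins, and this was the role with the smallest median, 0.036, with 6 of 11 positive. Without knockout replicate 2 that median was 0.019. Hdac5, a class IIa deacetylase that shuttles between nucleus and cytoplasm and binds Mef2 factors, stood at 62.4, 63.9 and 61.0 CPM in the wild type and 47.4, 42.6 and 48.2 CPM in the knockout. The groups did not overlap, and knockout replicates 1 and 3 were nearly equal. It was 1.35-fold lower, a log2 fold change of -0.44 (SE 0.097, edgeR adjusted p = 0.143), with a 95% interval of the fold change from 0.631 to 0.865. Without knockout replicate 2 it fell by 0.39 on the log2 scale and passed the threshold (adjusted p = 0.0332). It also passed in DESeq2 and in voom with sample quality weights, and in no other setting tried. The adjusted p was 0.144 in voom without weights and 0.487 in edgeR with the replicate number as a block. With that block only the libraries numbered 2 and 3 inform the difference, as numbers 1 and 4 each occur in 1 group. Leaving out wild type replicate 2 or 3 gave edgeR adjusted p of 0.532 and 0.559, in fits where 0 of all genes passed.

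Marker sums of endothelium, macrophages and epithelium were lower in the same knockout libraries as Hdac5. The 8 endothelial markers summed to 271 to 295 CPM in the wild type and to 216 to 251 CPM in the knockout, and 7 of the 8 had a negative log2 fold change (median -0.32). The 8 macrophage markers summed to 62.6 to 68.9 CPM and 34.3 to 44.8 CPM, and the 12 epithelial markers to 690 to 840 CPM and 367 to 652 CPM, with all markers of both lists negative. Of the epithelial markers, 4 overlapped between the groups. Without knockout replicate 2 the epithelial sums were 619 and 652 CPM in the knockout, and 2 markers were positive, Krt14 at 0.12 and Trp63 at 0.036. Red blood cell markers overlapped between the groups, at 500 to 954 CPM in the wild type and 649, 245 and 1323 CPM in the knockout. Almost all of that was Hbb-y, at 476 to 910 CPM and 624, 232 and 1275 CPM. Skeletal muscle markers summed to 336 to 655 CPM against 488, 11560 and 275 CPM. Of the 11560 CPM in knockout replicate 2, Ttn gave 10160 CPM and Myh3 804 CPM. That library was the highest for 9 of the 10 muscle markers, but Myog, at 27.6 CPM, lay inside the wild type range of 20.8 to 31.4 CPM. Osteoblast markers, of cells that in the palate come largely from the neural crest, summed to 1821 to 3203 CPM and 736 to 1087 CPM. That sum was almost all Col1a1 (2899, 2123 and 1686 CPM against 796, 744 and 588 CPM), and 3 of its 6 tested markers had a positive log2 fold change. Chondrocyte markers summed to 1230, 414.5 and 369 CPM in the wild type and 320, 189 and 391 CPM in the knockout, with overlapping groups. Of the 6 tested, 1 had a positive log2 fold change. Their median was -1.61, and -1.26 without knockout replicate 2. The part of these cells in the Hdac5 value was not tested.

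The other class IIa genes had values on both sides of 0. Hdac4, which restrains chondrocyte hypertrophy, stood at 24.3, 24.0 and 24.5 CPM in the wild type and 26.3, 33.5 and 27.1 CPM in the knockout (log2 fold change 0.25, SE 0.13, edgeR adjusted p = 0.395). All of its knockout libraries lay above the wild type, with replicate 2 highest, and without that library the log2 fold change was 0.13. Hdac9 ran from 17.7 to 27.7 CPM in the wild type and from 13.6 to 20.6 CPM in the knockout (log2 fold change -0.37, SE 0.22, adjusted p = 0.447), with overlapping groups. Hdac7, known from endothelium, had a log2 fold change of 0.036, and 0.0018 without knockout replicate 2.

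Among class I deacetylases, Hdac1 stood at 121, 122 and 131 CPM in the wild type and 119, 92.9 and 115 CPM in the knockout (log2 fold change -0.20, edgeR adjusted p = 0.467, and -0.10 without knockout replicate 2). Its groups were separate, but knockout replicate 1 lay just below the lowest wild type library. Its partner Hdac2 stood at 261, 275 and 291 CPM against 271, 201 and 303 CPM. The value of knockout replicate 2 was the only one below the wild type range, and the log2 fold change of -0.094 became 0.048 without that library. Hdac3, the catalytic subunit of the nuclear receptor corepressor complex, likewise went from -0.10 to 0.019. The cytoplasmic tubulin deacetylase Hdac6 had all knockout libraries above the wild type (log2 fold change 0.19, adjusted p = 0.397).

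Sirtuins are deacylases that consume NAD, with members in the nucleus, cytoplasm and mitochondria. Of the 7, 6 were positive, with a median of 0.18 and 0.10 without knockout replicate 2. Sirt6, a nuclear histone deacetylase of chromatin and DNA repair, stood at 17.2, 15.6 and 16.2 CPM in the wild type and 20.1, 22.8 and 19.4 CPM in the knockout (log2 fold change 0.34, SE 0.12, edgeR adjusted p = 0.314). All knockout libraries were higher. Sirt2, mainly a cytoplasmic tubulin deacetylase, had 35.0, 36.8 and 40.3 CPM against 40.5, 42.9 and 43.5 CPM, with the lowest knockout library just above the highest wild type library. The mitochondrial Sirt3, Sirt4 and Sirt5 stood below 10 CPM in every library and overlapped between groups.

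Lysine demethylases oppose the methyltransferases, and 12 of the 14 had a positive log2 fold change, with a median of 0.14. This was the role whose median moved least without knockout replicate 2, to 0.13. Its library medians lay above the wild type mean in all 3 knockout libraries. The same held for every other role except the zinc-dependent deacetylases, at -0.065 in knockout replicate 3. In 7 of the 14 the groups were separate and higher, where 12.3% of all genes were. Kdm3a, which removes mono- and dimethyl marks from lysine 9 of histone H3, stood at 71.5, 77.0 and 73.4 CPM in the wild type and 89.1, 107 and 88.3 CPM in the knockout (log2 fold change 0.36, SE 0.11, edgeR adjusted p = 0.265). Kdm4b, which removes trimethyl marks from the same residue, stood at 54.6, 59.2 and 57.8 CPM against 76.8, 65.9 and 70.1 CPM (log2 fold change 0.31, SE 0.10, adjusted p = 0.279). Both were higher in every knockout library. For Kdm4b the highest value came from knockout replicate 1, and its log2 fold change was 0.35 without replicate 2 (adjusted p = 0.0660), while that of Kdm3a was 0.25 (adjusted p = 0.125).

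The demethylases of lysine 4, the residue that Kmt2d methylates, belong to the Kdm5 and Kdm1 families. Kdm5a stood at 120, 120 and 112 CPM in the wild type and 135, 157 and 135 CPM in the knockout (log2 fold change 0.28, SE 0.10, edgeR adjusted p = 0.323). Kdm5b stood at 221, 216 and 233 CPM against 241, 233 and 257 CPM, where knockout replicate 2 was level with the highest wild type library. Kdm1a, also called LSD1, had 106, 117 and 112 CPM against 109, 101 and 120 CPM, an overlap with a 95% interval of the fold change from 0.830 to 1.16. Kdm1b overlapped too, with a log2 fold change of 0.11.

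Kdm5c, a lysine 4 demethylase on the X chromosome, did not follow the genotype. Its wild type replicates 2, 3 and 4 had 130, 186 and 134 CPM, and it stood at 146, 202 and 152 CPM in knockout replicates 1, 2 and 3. The high libraries, wild type replicate 3 and knockout replicate 2, were also the ones with Xist, the RNA that coats an inactive X chromosome, at 2087 and 5369 CPM against at most 1.28 CPM elsewhere. Kdm5c is known to escape X inactivation in mice. The other X-linked members did not show this pattern: Hdac6 stood at 49.3 CPM in wild type replicate 3 and 57.9 CPM in knockout replicate 2, inside the range of the same group, and Hdac8 was lowest of its group in both. With these libraries in opposite groups, the log2 fold change of Kdm5c was 0.15 (edgeR adjusted p = 0.716) and -0.019 without knockout replicate 2. The Y-linked Ddx3y stood at 0.045 CPM in wild type replicate 3, 0 CPM in knockout replicate 2 and 76.4 to 91.0 CPM elsewhere. By Xist and Ddx3y, these libraries read as female and the others as male. Knockout replicate 2 was thus the only female knockout library, and the part of sex in its values was not tested.

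Among the remaining demethylases, the lysine 36 demethylase Kdm2a, Kdm3b and the lysine 9 demethylase Kdm4c were also higher in every knockout library, with log2 fold changes of 0.21, 0.14 and 0.39 and edgeR adjusted p from 0.384 to 0.488. Without knockout replicate 2 these were 0.11, 0.12 and 0.14. For Kdm4c most of the difference came from that library, with 42.5 CPM where knockout replicates 1 and 3 had 26.7 and 28.6 CPM. Its wild type libraries had 24.5, 26.7 and 23.5 CPM, so that knockout replicate 1 was level with the highest of them. Kdm8, a JmjC protein of the family, had the most negative value, with 7.83, 5.65 and 4.52 CPM in the wild type and 4.56, 4.24 and 5.03 CPM in the knockout. The groups overlapped (log2 fold change -0.38, SE 0.25, adjusted p = 0.494).

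The SET domain group holds lysine methyltransferases other than the Kmt2 family, and 10 of 11 were positive with a median of 0.15, and 0.083 without knockout replicate 2. Setd5, a large SET domain protein mutated in intellectual disability, stood at 280, 281 and 272 CPM in the wild type and 316, 391 and 299.6 CPM in the knockout (log2 fold change 0.27, SE 0.13, edgeR adjusted p = 0.372). Setd2, the trimethylase of lysine 36, stood at 203, 205 and 201 CPM against 214, 302 and 225 CPM. In both genes every knockout library was higher and replicate 2 was far the highest. Without it the log2 fold changes were 0.14 and 0.10. Ehmt1, the lysine 9 methyltransferase GLP, was separate and higher by 0.15 (adjusted p = 0.462), while its partner Ehmt2 (G9a) overlapped at -0.029, and at 0.026 without knockout replicate 2.

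The polycomb methyltransferase Ezh2, which sets the repressive mark on lysine 27, stood at 118, 128 and 129 CPM in the wild type and 125, 132 and 141 CPM in the knockout. The groups overlapped, and the 95% interval of the fold change ran from 0.907 to 1.24. Ezh1, its paralog of less proliferative tissue, had a log2 fold change of 0.34, and leaving out knockout replicate 2 took it to -0.0079. Markers of dividing cells summed to 2284 to 2527 CPM in the wild type and 2410, 2017 and 2462 CPM in the knockout.

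Prdm proteins are zinc finger transcription regulators with a SET-related domain, of which only some have shown methyltransferase activity. Of the 14, 11 were tested, 9 were positive and 0 had separate groups (12.3% higher and 11.2% lower over all genes). The median of 0.21 was 0.042 without knockout replicate 2. Prdm10 stood at 10.6, 11.1 and 9.51 CPM in the wild type and 12.6, 24.1 and 10.7 CPM in the knockout (log2 fold change 0.59, SE 0.30, edgeR adjusted p = 0.394). Knockout replicate 2 was far the highest, knockout replicate 3 lay inside the wild type range, and the value was 0.15 without replicate 2. Prdm15 (21.96, 25.4 and 22.2 CPM against 29.1, 35.2 and 23.3 CPM) and Prdm2 (99.9, 103 and 105 CPM against 103, 133 and 108 CPM) were likewise highest in replicate 2. Prdm16, needed for palate closure, stood at 23.6, 24.0 and 23.1 CPM against 24.3, 22.6 and 26.8 CPM, an overlap with a log2 fold change of 0.059, and 0.11 without knockout replicate 2. Prdm9, the meiotic lysine 4 methyltransferase, stood at 1.34 to 1.55 CPM in the wild type and at 1.14, 4.62 and 1.44 CPM in the knockout, while 6 germ cell markers summed to 2.11 to 4.06 CPM and 2.10 to 3.54 CPM.

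Of the 7 genes of DNA methylation, 6 were tested, with a median of 0.12 and 0.075 without knockout replicate 2. Tet2, which oxidises methylcytosine, stood at 66.7, 66.5 and 53.0 CPM in the wild type and 80.6, 146 and 76.7 CPM in the knockout (log2 fold change 0.70, SE 0.25, edgeR adjusted p = 0.313). All knockout libraries were higher, and without knockout replicate 2 the log2 fold change was 0.33 (adjusted p = 0.170). Tet1 stood at 61.0, 56.7 and 57.8 CPM against 57.3, 92.3 and 66.4 CPM, with overlapping groups, and Tet3 was separate and higher by 0.10. The maintenance enzyme Dnmt1 stood at 248, 257 and 266 CPM against 273, 282 and 273 CPM, higher in every knockout library by 0.10 on the log2 scale (SE 0.094, adjusted p = 0.614). The de novo enzyme Dnmt3a stood at 402, 407 and 410 CPM against 395, 395 and 416 CPM, with a 95% interval of the fold change from 0.847 to 1.15. Dnmt3b, at 8.40 to 15.3 CPM, had its highest value in knockout replicate 2, and its log2 fold change of 0.13 was -0.16 without that library.

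Other genes of the same pathways, from lists drawn up with earlier results known, gave 0 calls with 6 libraries. Over all genes tested, 0.534% were called. The median log2 fold change was 0.031 over 9 polycomb partners, 0.093 over 23 subunits of deacetylase complexes, 0.042 over 10 readers and partners of DNA methylation, 0.24 over 17 other lysine methyltransferases, 0.031 over 6 other JmjC demethylases and 0.23 over 10 acetyltransferases. Without knockout replicate 2 these medians were, in the same order, -0.0042, 0.058, -0.052, 0.13, 0.025 and 0.14. Of the acetyltransferases 9 of 10 were positive. Crebbp, the enhancer acetyltransferase CBP, stood at 148, 157 and 157 CPM in the wild type and 194, 287 and 178 CPM in the knockout (log2 fold change 0.51, edgeR adjusted p = 0.307). All knockout libraries were higher, with replicate 2 highest, and the value was 0.26 without it. The NuRD subunit Mta3 had 21.8, 22.4 and 26.6 CPM against 31.8, 32.4 and 28.3 CPM (log2 fold change 0.39, adjusted p = 0.278). Of the other lists, the smallest p belonged to Phf1, a polycomb partner, Whsc1, a lysine 36 methyltransferase, and Jhdm1d, a demethylase now named Kdm7a. Phf1 had 12.03, 10.5 and 11.3 CPM against 14.4, 22.8 and 12.3 CPM, Whsc1 had 176, 183 and 184 CPM against 199, 273 and 216 CPM, and Jhdm1d had 39.6, 38.4 and 39.8 CPM against 41.6, 79.4 and 54.9 CPM. All 3 were higher in every knockout library, again with replicate 2 highest (edgeR adjusted p = 0.355, 0.330 and 0.323).

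Gadd45b, which has been linked to active DNA demethylation and responds to stress, stood at 8.51, 8.20 and 6.67 CPM in the wild type and 3.99, 2.57 and 3.04 CPM in the knockout. The groups were well apart, with a log2 fold change of -1.28 (SE 0.23, edgeR adjusted p = 0.0825). Without knockout replicate 2 it fell by 1.17 on the log2 scale (adjusted p = 0.0329). It had the smallest p of the 6 lists. Gadd45b is also an immediate response gene in many cell types, and the macrophage and epithelial marker sums given beside Hdac5 were lower in the same libraries, and their part was not tested.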

How the data were processed

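Messenger RNA of palatal shelves was sequenced from a stranded kit as paired 25 bp reads, per the labels' protocols. The authors deposited raw counts of pairs for each gene symbol in 1 table per library. The submitters' processing notes name TopHat2, SAMtools, HTSeq and mm9 and give no versions. The strand setting is not given in the sources used here, so overlapping genes could share counts. Totals were 12721979 to 24916079 counts in genes. The labels describe 3 biological replicates per group, numbered in the titles, with no litter or batch. Groups were compared over all genes with edgeR 4.0.16 (R 4.3.3; TMM, filterByExpr, robust quasi-likelihood test, Benjamini-Hochberg at 0.05). DESeq2 1.42.0, limma 3.58.1 (voom), other scalings and filters, a replicate block and omission of each library were alternatives. Lengths came from GENCODE M21 and promoters from RefSeq, of another build than the counts. Named by rule, with the value of every library, were members with an unadjusted p under 0.05, the 2 smallest p and the highest mean of each role, those past the threshold without knockout replicate 2, and the smallest p of each other list. All others, such as Kdm5c, Hdac9, Ezh2, Dnmt1, Dnmt3b, Prdm16, Kdm1a and Chd4, were named after their values were seen. The members and lists were chosen with earlier results of these data known.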

Additional observations from a re-analysis of the deposited data

How the results depend on the processing

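The number of genes past the threshold, 76 with all 6 libraries, was 486 with DESeq2, 359 with limma voom and sample quality weights, and 298 with the replicate number as a block. In the block fit the difference rests on the libraries numbered 2 and 3 only, since numbers 1 and 4 each occur in 1 group. Leaving out 1 library gave 0 to 306 genes: 0 without wild type replicate 2 or 3 (edgeR, 1102 and 1117 at an unadjusted p under 0.05), 3 without wild type replicate 4, 20 without knockout replicate 1, 306 without knockout replicate 2 and 11 without knockout replicate 3. Of the 69 members, 2 passed with DESeq2, 1 with the quality weights, 0 with the replicate block and 0 to 1 with a library left out. The members' median stayed positive in every alternative, at 0.183 with the replicate block. The quality weights gave log2 fold changes of -0.0044 for Kdm5c, -0.034 for Dnmt3b and 0.029 for Chd4, and the replicate block gave 0.0032 for Dnmt3a, each on the other side of 0. With single libraries left out, the log2 fold change ran from -0.094 to 0.024 for Kdm1a, -0.025 to 0.029 for Chd4, -0.22 to 0.048 for Hdac2, -0.019 to 0.34 for Kdm5c, -0.16 to 0.31 for Dnmt3b and -0.011 to 0.11 for Prdm16. The cause of these differences was not tested. The numbers 2 and 3 are shared by both groups, and deviations from the group means correlated at 0.19 for number 2 and -0.14 for number 3. Pairs of unlike number were not compared, so these values do not decide whether the numbers pair the samples. The labels name no litter or batch, and the main fit took the samples as unpaired. Intervals reached 2-fold for Kdm4d, Prdm6, Prdm8, Prdm9, Prdm10, Sirt4, Chd5 and Tet2, and the parts of depth and of knockout replicate 2 in their width were not tested.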
